A study of Homo sapiens with 27 samples.

Results

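The regions described here are 5728 peaks of acetylated H2A.Z (acH2A.Z) that were listed in HL-60 cells under each of 2 transcription inhibitors and not in vehicle-treated cells. They were chosen from deposited peak lists. Each is a peak of the DRB acH2A.Z list on chromosomes 1 to 22 that shares at least 1 bp with a peak of the ActD list and none with a peak of the DMSO list. They touch 5813 of the 30349 ActD peaks (19.2%), 100 of which also share a base with a DMSO peak elsewhere along their length. They are called gained peaks below and make up 20.1% of the 28552 DRB peaks on these 22 chromosomes. The DRB peaks that share a base with both an ActD and a DMSO peak (13409, called kept) and those that share a base with neither (7283, called DRB-only) are set beside them. The remaining 2132 DRB peaks share a base with a DMSO peak and with no ActD peak.

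HL-60 is an established human promyelocytic leukaemia line. Cells received DRB (5,6-dichlorobenzimidazole riboside) at 100 µM, actinomycin D (ActD) at 0.8 µM, or DMSO, the solvent. Chromatin immunoprecipitation (ChIP) was done with antibodies to acH2A.Z and to H2A.Z in these 3 states and in cells labelled siMyc and siNTC. Newly made (nascent) RNA was captured from DRB-treated, ActD-treated, DMSO-treated and untreated cells, and RNA immunoprecipitation (RIP) with antibodies to H2A.Z, acH2A.Z and Tip60 was done in untreated cells. The sources used here do not say how long cells were treated. Each group is 1 library, so no group has a replicate and no p-value is given. Intervals below are exact (Clopper-Pearson) 95% intervals, which cover counting error only. The libraries compared here differ by treatment and by whatever else differed between single preparations, and these cannot be told apart.

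H2A.Z is a histone variant that replaces H2A in nucleosomes beside the starts of genes and at enhancers. The SRCAP and TIP60 complexes exchange it into nucleosomes, and TIP60 is an acetyltransferase that can acetylate its tail. Acetylated H2A.Z is known as a mark of active promoters and enhancers. DRB blocks the kinases that release paused RNA polymerase II into elongation, and ActD binds DNA and stops transcription by all nuclear polymerases.

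The starts of genes with a gained peak fell into CpG-rich and CpG-poor promoters, and 6 promoter windows are printed to show both kinds. Each runs from 250 bases before to 50 bases after a RefSeq gene start (GRCh38.p14), is written 5′ to 3′ on the strand of the gene, and has every CpG dinucleotide in capitals. HACD4 (chr9:21031591-21031890, minus strand), CDKL1 (chr14:50396832-50397131, minus strand) and KLF4 (chr9:107489720-107490019, minus strand) hold 24, 33 and 33 CpG dinucleotides. CREB5 (chr7:28685883-28686182, plus strand), BCL2A1 (chr15:79971147-79971446, minus strand) and CXCL8 (chr4:73740319-73740618, plus strand) hold 5, 2 and 4.
HACD4: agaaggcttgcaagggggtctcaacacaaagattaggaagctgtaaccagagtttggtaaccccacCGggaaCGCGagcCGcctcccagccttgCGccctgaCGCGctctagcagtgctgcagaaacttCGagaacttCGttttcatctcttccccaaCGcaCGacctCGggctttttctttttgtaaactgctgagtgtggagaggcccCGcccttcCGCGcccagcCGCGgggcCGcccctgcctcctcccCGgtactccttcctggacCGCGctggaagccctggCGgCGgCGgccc
CDKL1: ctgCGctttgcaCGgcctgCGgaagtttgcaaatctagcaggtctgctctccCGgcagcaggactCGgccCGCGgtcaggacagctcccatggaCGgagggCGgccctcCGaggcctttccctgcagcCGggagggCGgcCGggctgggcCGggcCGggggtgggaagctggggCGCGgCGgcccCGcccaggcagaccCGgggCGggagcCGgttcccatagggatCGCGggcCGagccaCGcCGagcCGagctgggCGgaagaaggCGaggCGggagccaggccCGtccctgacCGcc
KLF4: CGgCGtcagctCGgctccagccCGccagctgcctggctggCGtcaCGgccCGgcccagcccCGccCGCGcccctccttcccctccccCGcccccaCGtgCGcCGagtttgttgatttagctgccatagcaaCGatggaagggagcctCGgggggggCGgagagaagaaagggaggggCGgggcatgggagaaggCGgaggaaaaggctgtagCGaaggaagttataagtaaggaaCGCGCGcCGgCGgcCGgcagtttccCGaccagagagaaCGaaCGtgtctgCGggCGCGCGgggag
CREB5: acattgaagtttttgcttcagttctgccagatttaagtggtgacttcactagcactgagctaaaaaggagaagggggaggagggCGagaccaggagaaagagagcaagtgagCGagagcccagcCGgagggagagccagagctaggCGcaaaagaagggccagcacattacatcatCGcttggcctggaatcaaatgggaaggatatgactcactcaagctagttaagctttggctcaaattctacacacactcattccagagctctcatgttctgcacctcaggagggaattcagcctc
BCL2A1: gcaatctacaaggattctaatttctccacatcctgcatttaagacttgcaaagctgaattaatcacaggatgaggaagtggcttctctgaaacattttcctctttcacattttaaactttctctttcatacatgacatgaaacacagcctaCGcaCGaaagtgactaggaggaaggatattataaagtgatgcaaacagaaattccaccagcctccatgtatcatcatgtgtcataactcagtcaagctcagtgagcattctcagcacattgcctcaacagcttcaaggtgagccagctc
CXCL8: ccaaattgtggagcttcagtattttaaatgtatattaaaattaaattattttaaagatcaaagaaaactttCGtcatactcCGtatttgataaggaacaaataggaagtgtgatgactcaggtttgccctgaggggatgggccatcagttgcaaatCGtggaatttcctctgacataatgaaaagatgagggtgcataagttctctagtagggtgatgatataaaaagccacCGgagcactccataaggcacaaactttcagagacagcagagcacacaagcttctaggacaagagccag

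Of all RefSeq windows of this length, 461 lay wholly inside a gained peak and 10791 inside a kept peak. The median window held 20 CpG dinucleotides in gained peaks, 26 in kept peaks and 14 over all 33725 windows. Fewer than 10 CpG dinucleotides were found in 36.4% [32.0, 41.0] of the windows in gained peaks, 7.36% [6.87, 7.87] of those in kept peaks, 23.3% [20.1, 26.8] of the 634 windows in DRB-only peaks and 43.7% of all windows. The share of CpG-poor promoters among gained peaks was above that in both other classes and below that over all promoters.

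Short motifs were counted in the same windows on both strands. GGGCGG, the core of the SP1 site, was found in 53.1% [48.5, 57.8] of the windows in gained peaks, 70.6% [69.7, 71.5] of those in kept peaks, 68.6% [64.8, 72.2] of those in DRB-only peaks and 45.0% of all windows. TGACTCA, or TGAGTCA on the other strand, is the site of AP-1 factors such as FOSB, and was found in 8.03% [5.71, 10.9], 2.52% [2.23, 2.83], 5.05% [3.48, 7.05] and 4.91% of the same sets. TATAAA was found in 9.33% [6.83, 12.4], 4.80% [4.41, 5.22], 5.36% [3.74, 7.41] and 11.6%. For both motifs the intervals of gained and DRB-only windows overlap. ACTTCCGG, an ETS-family site, was found in 2 windows (0.434%) in gained peaks, against 10.4% in kept peaks, 1 window (0.158%) in DRB-only peaks and 4.19% of all windows, so its scarcity was shared by both classes absent from DMSO. GAGGAAGT, a site of the myeloid factor PU.1 that shares its GGAAGT core with the other strand of the ETS site, was found in 4.99% [3.19, 7.39], 2.84% [2.53, 3.17], 3.94% [2.57, 5.77] and 2.58%. CCAAT was found in 29.5% [25.4, 33.9], 35.4%, 26.0% and 34.4%, and the E-box CACGTG in 9.54% [7.02, 12.6], 10.6%, 11.0% and 7.18%. Among the printed promoters, CREB5 and CXCL8 hold the AP-1 letters, BCL2A1 and CXCL8 the TATAAA letters, BCL2A1 the PU.1 letters, KLF4 the E-box, and HACD4, CDKL1 and KLF4 the SP1 letters. A match is a description of letters and does not show that a factor was bound.

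The gained peaks were small by the values that chose them, which are given as a description. The median gained peak had 38.7 normalized tags in the DRB list, against 244 for kept peaks and 24.3 for DRB-only peaks. Its ActD counterpart had a median of 17.8 tags, against 156 for kept peaks. The median width was 954 bp for gained, 2161 bp for kept and 776 bp for DRB-only peaks. DRB tags exceeded ActD tags in 76.5% of gained peaks, and the rank correlation (Spearman) between both tag counts over the 5728 peaks was 0.23, against 0.60 over the 13409 kept peaks. Tag counts of a peak share the depth and background of their library.

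The lists differ in length and in how weak a peak they can hold. The DRB, ActD and DMSO lists have 28552, 30349 and 16489 peaks on the 22 chromosomes. The lowest tag count of any peak was 11.2 in the DRB list, 4.06 in the ActD list and 17.1 in the DMSO list. Per the file headers, total tags of a peak in these 3 lists are scaled to the control library, and 1 normalized tag stood for 0.536 scaled tags in the DRB list, 1.97 in the ActD list and 0.352 in the DMSO list. The lowest scaled tag count was 6 in the DRB and DMSO lists and 8 in the ActD list. Of the gained peaks, 902 (15.8%) were at or under 17.1 tags in the DRB list. In both the DRB and the ActD list, 2612 (45.6%) had more tags than the weakest DMSO peak, 582 (10.2%) more than the lower quartile of DMSO peaks (48.5 tags), and 52 (0.908%) more than the median DMSO peak (161.5 tags). How many gained peaks, above or below these levels, went unlisted in DMSO because of its scaling was not tested, since no tag counts outside the DMSO peaks were used here.

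**Figure D1:**
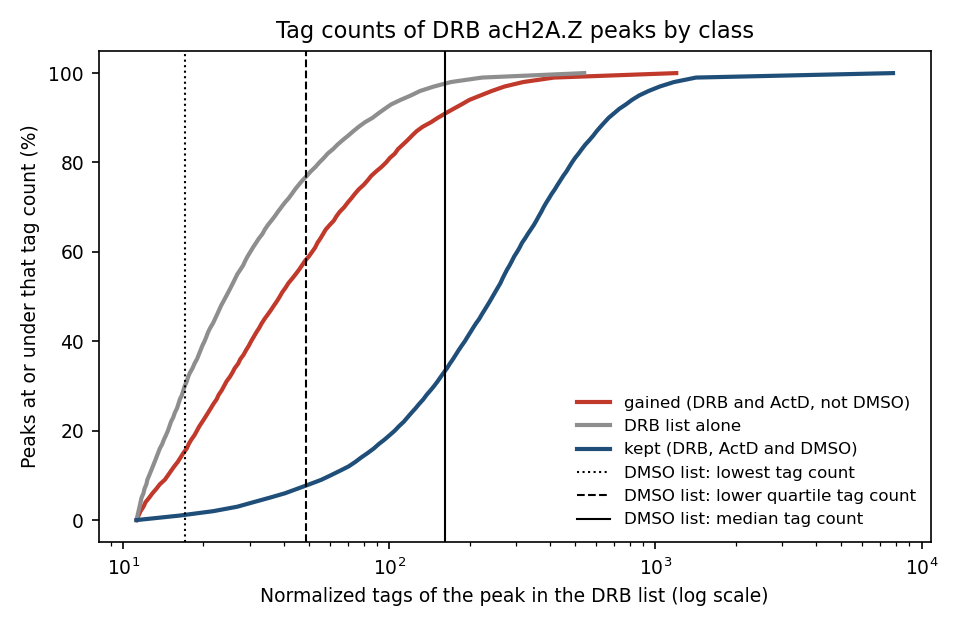
Cumulative share (%) of DRB acH2A.Z peaks at or under each normalized tag count (log axis) for 5728 gained, 7283 DRB-only and 13409 kept peaks, with vertical lines at the lowest, lower-quartile and median tag count of the DMSO list. The gained curve lies between the DRB-only and the kept curve, and 90.9% of gained peaks are at or under the DMSO median of 161.5 tags.

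Few gained peaks lay directly beside a DMSO peak, and the rule itself bars overlap with one. The gap to the nearest DMSO peak had a median of 36531 bp and a quartile range of 10873 to 108564 bp. Gaps of DRB-only peaks or of random positions were not computed, so whether these gaps are long was not tested. It was over 100000 bp for 1541 peaks (26.9%) and 1000 bp or less for 102 (1.78%). The closest gained peak, chr19:48468454-48469079, ended 11 bp from a DMSO peak, and the next were 32 and 98 bp away. Just outside the rule, the kept peak with the smallest overlap, chr15:45049172-45049672, shared 16 bp with a DMSO peak.

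The gained peaks were mostly away from gene starts. A peak was placed at a gene start when its centre was within 1000 bp of one of 33725 starts that RefSeq lists for 26246 protein-coding and lncRNA genes on 21 of the 22 chromosomes. Starts on chromosome 8 were not used here, which left 5466 gained peaks. Of these, 492 (9.0% [8.26, 9.79]) were at a gene start, against 51.6% [50.7, 52.5] of kept peaks, 12.2% [11.5, 13.0] of DRB-only peaks and 32.1% of all DRB peaks. The median distance to the nearest start was 24808 bp for gained peaks, 832 bp for kept peaks and 17445 bp for DRB-only peaks. Over 50000 bp from any start lay 29.8% [28.6, 31.0] of gained peaks, against 12.7% [12.1, 13.2] of kept, 22.3% [21.4, 23.3] of DRB-only and 18.4% of all DRB peaks.

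The few gained peaks near starts were centred on them. Within the 250 bp on the downstream side of a start lay 2.51% of gained peaks, and 1.98% lay within the 250 bp on the upstream side. The same bins held 15.5% and 15.0% of kept peaks. Of the 492 gained peaks at a start, 52.6% [48.1, 57.1] had their centre downstream of it.

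**Figure D2:**
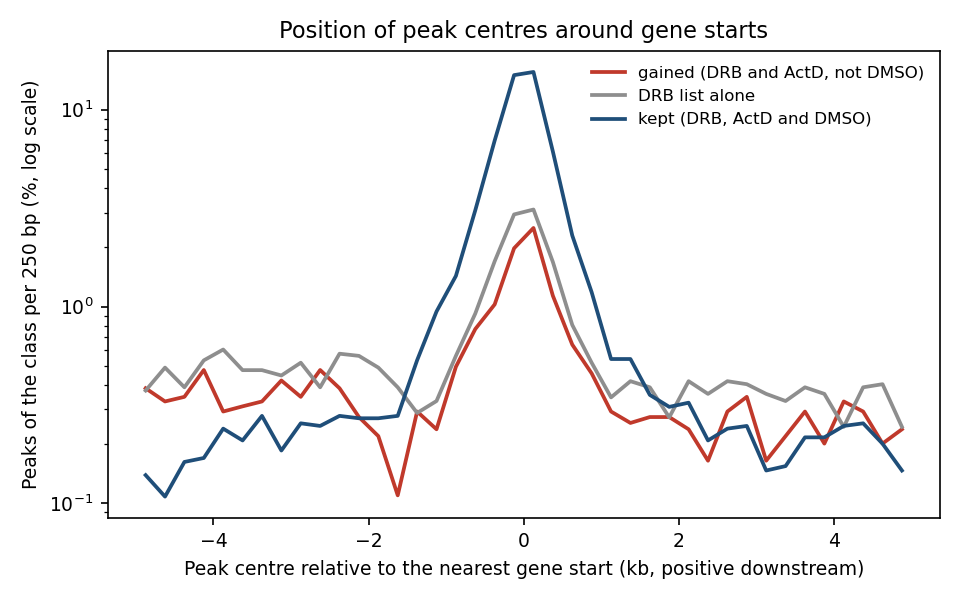
Share (%, log axis) of gained, DRB-only and kept acH2A.Z peaks per 250 bp bin against the position of the peak centre relative to the nearest gene start, in kb, with positive values downstream. All 3 classes peak at the start, where the 2 central bins hold 1.98% and 2.51% of gained peaks and 15.0% and 15.5% of kept peaks.

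By gene bodies the difference was smaller. The centre lay in a protein-coding gene for 41.1% [39.8, 42.4] of gained peaks, against 51.1% [50.3, 52.0] of kept, 42.1% [40.9, 43.2] of DRB-only and 46.8% of all DRB peaks. It lay in a lncRNA gene alone for 14.6% and 11.5%, against 12.6% of all DRB peaks, and in neither for 44.3% and 37.3%, against 40.6% of all. Of 1461 miRNA hairpins with a RefSeq position, 5 lay in gained peaks (MIR7852, MIR4487, MIR4521, MIR4783 and MIR12115), and 105 lay in kept peaks. Kept peaks are more numerous and wider (medians above), and these counts were not scaled to the bases covered, so they do not compare the classes.

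Gained peaks took very different shares of the DRB peaks of each chromosome. The highest shares were 30.9% [28.4, 33.4] on chromosome 4, 27.8% [24.9, 30.8] on chromosome 13, 26.4% on chromosome 3 and 25.2% on chromosome 18. The lowest were 4.71% [3.18, 6.69] on chromosome 22, 5.13% [4.03, 6.42] on chromosome 19, 10.4% on chromosome 16 and 12.7% on chromosome 17. Chromosomes 13, 18 and 4 had the fewest protein-coding genes per Mb (2.96, 3.37 and 4.05) and chromosomes 19 and 17 the most (24.8 and 14.1). Over the 22 chromosomes the rank correlation of the gained share with gene density was −0.86. It was −0.84 when the gained peaks were limited to those with more tags than the weakest DMSO peak in both lists, and 0.34 for the share of kept peaks. Chromosomes share 1 library in each list, and base composition goes with gene density along the genome, so these values are a description.

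**Figure D3:**
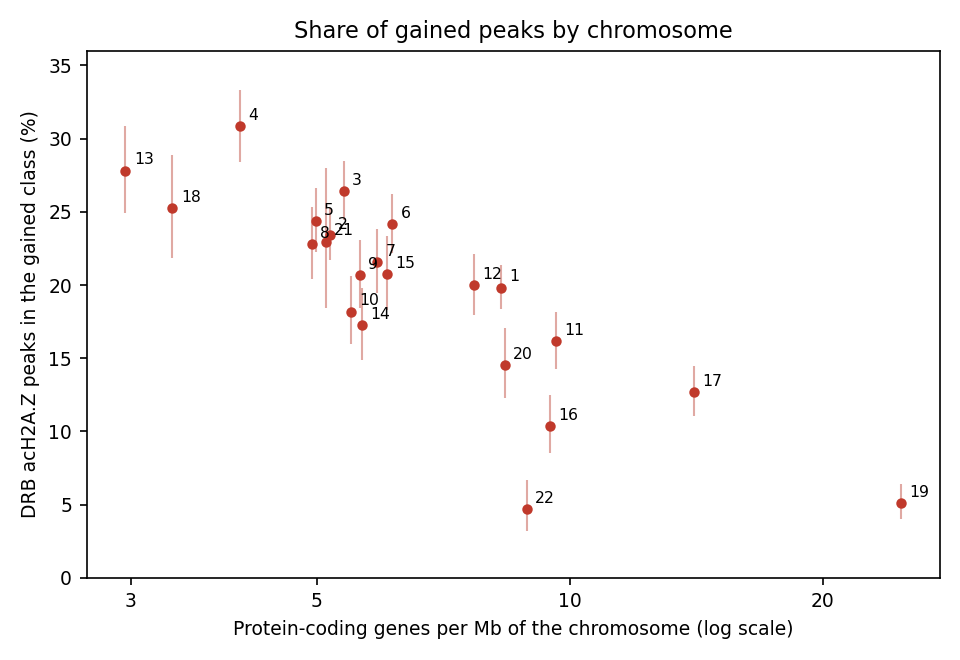
Share (%) of the DRB acH2A.Z peaks of each of 22 chromosomes that are gained peaks, against its protein-coding genes per Mb (log axis), with chromosome numbers beside the points and exact 95% counting intervals as bars. Gene-poor chromosomes 4 and 13 reach 30.9% and 27.8%, and gene-dense chromosome 19 has 5.13%.

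Some long genes held several gained peaks. Gained centres lay in 1744 protein-coding genes, 1 in each of 1322 of them, and 28 genes held at least 5. The host genes had a median length of 111 kb, against 24.5 kb over 19126 protein-coding genes. ANKRD55, an ankyrin-repeat gene, held 8 gained peaks and no kept peak over 134 kb. FOXP1, a forkhead transcription factor of blood cell development, held 7 beside 3 kept peaks, and POU2F1, the octamer factor OCT1, held 7 beside 2. ATP8B4, a lipid flippase gene, held 6, the strongest with 1048 DRB tags. GAS7, known as a fusion partner in leukaemia, held 6 gained and no kept peaks, and NEIL3, a DNA glycosylase gene of only 61.4 kb, held 5 gained and 1 kept.

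The acH2A.Z list of siNTC cells is a second list made without an inhibitor, and the rule did not use it. It held 1086 gained peaks (19.0%), against 76.2% [75.5, 77.0] of kept peaks, 24% of DRB-only peaks and 50.9% of all DRB peaks. The siMyc acH2A.Z list held 838 (14.6% [13.7, 15.6]), against 54.6% of kept, 9.14% [8.49, 9.83] of DRB-only and 32.9% of all DRB peaks. Both lists held 486 (8.48%), and 4290 (74.9% [73.8, 76.0]) were in neither, against 18.7% of kept, 73.0% [72.0, 74.0] of DRB-only and 44.5% of all DRB peaks, so in this the gained peaks stood close to the DRB-only peaks. So 1438 gained peaks were listed in at least 1 state without DRB or ActD. The siNTC and siMyc lists differ from the DMSO list in depth and in the scaling of their controls.

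Presence in the siNTC list followed the strength of the peak. Of gained peaks at or under 17.1 DRB tags it held 2.44% [1.54, 3.67], and of those over 120 tags 61.3% [57.8, 64.6]. Kept peaks of the same tag ranges were in it at 10.9% [6.48, 16.9] and 87.9% [87.3, 88.6]. In the range over 60 to 120 tags the shares were 29.9% [27.2, 32.7] of gained, 51.3% [49.0, 53.6] of kept and 54.0% [50.7, 57.3] of DRB-only peaks. In all 5 tag ranges the gained share was the lowest of the 3 classes, and its interval did not overlap theirs. The gained share at gene starts was also the lowest of the 3 classes in each range. Over 60 to 120 tags, 13.5% [11.5, 15.7] of gained peaks were at a start, against 34.0% [31.8, 36.2] of kept and 20.5% [17.8, 23.4] of DRB-only peaks. Over 120 tags the values were 17.6% [15.0, 20.4] of gained, 59.3% [58.3, 60.2] of kept and 20.1% [16.0, 24.7] of DRB-only peaks, and there the intervals of gained and DRB-only peaks overlap.

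**Figure D4:**
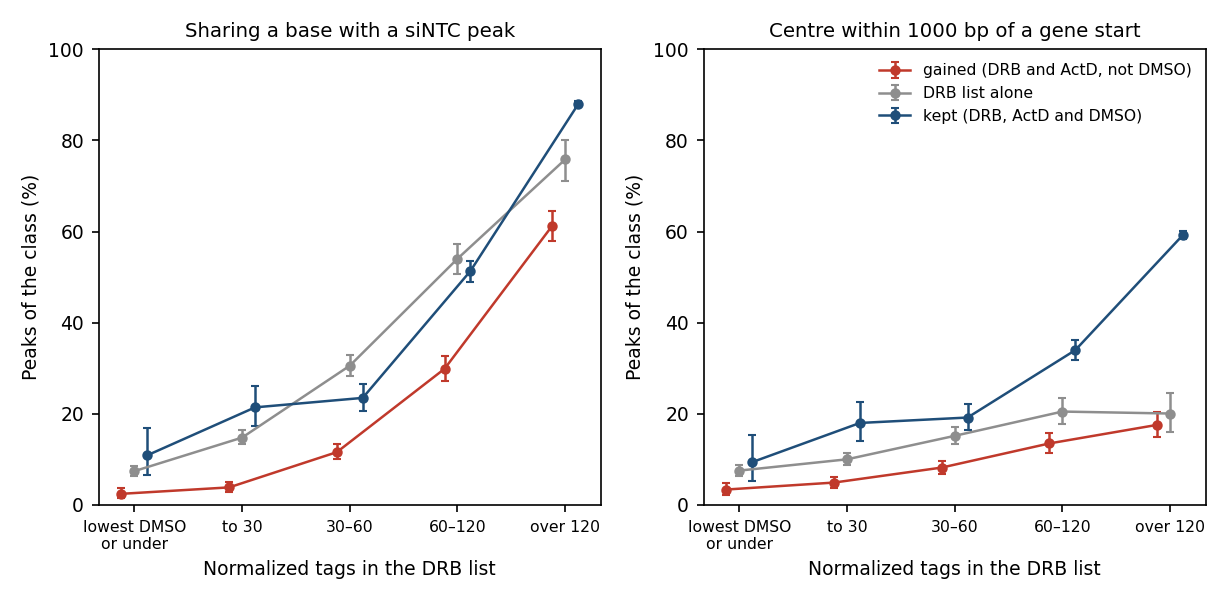
Share (%) of gained, DRB-only and kept peaks that share a base with a siNTC acH2A.Z peak (left) or have their centre within 1000 bp of a gene start (right), by normalized tags in the DRB list, with exact 95% counting intervals as bars. Gained peaks are the lowest of the classes in each siNTC bin, with 2.44% in the weakest and 61.3% in the strongest.

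The gained peaks in the siNTC list were the stronger ones and the ones nearer to genes. Their median was 112 DRB tags, and 28.1% of them were at a gene start. The other 4642 had a median of 31.5 DRB tags, and 4.57% of them were at a gene start. ActD tags hardly separated both sets, with medians of 18.7 and 17.5.

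Total H2A.Z, immunoprecipitated with a separate antibody, was rarely listed at gained peaks, as it was at DRB-only peaks. The DRB H2A.Z list held 114 (1.99% [1.64, 2.39]), against 19.97% of kept, 2.72% [2.36, 3.12] of DRB-only and 11.0% of all DRB peaks, and the ActD H2A.Z list held 185 (3.23% [2.79, 3.72]), against 8.41% of kept, 1.56% [1.29, 1.88] of DRB-only and 5.13% of all. Both held 25. The DMSO H2A.Z list held 0 of 5728, which allows a share of up to 0.0524% at 3 counts and 0.0644% by the exact interval, against 7.84% of kept, 0.0687% of DRB-only and 3.75% of all. The siMyc and siNTC H2A.Z lists held 6.86% and 3.02% of gained peaks, against 24.3% and 13.1% of kept and 15.1% and 7.95% of all DRB peaks. At least 1 of the 5 H2A.Z lists held 700 gained peaks (12.2% [11.4, 13.1]), against 45.5% of kept, 10.1% [9.38, 10.8] of DRB-only and 28.0% of all. The H2A.Z lists are short and weak, the DMSO one with 1254 autosomal peaks.

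Part of the gained peaks overlapped RIP peaks of H2A.Z, acH2A.Z and Tip60 by position. These RIP lists are long, with 97665, 259421 and 245708 autosomal peaks, and the overlap to be met by position alone was not tested. Of the gained peaks, 7.84% [7.16, 8.57] shared a base with the H2A.Z RIP list, 20.8% [19.8, 21.9] with the acH2A.Z RIP list and 20.3% [19.3, 21.4] with the Tip60 RIP list. Kept peaks did so at 13.2%, 37.6% and 32.7%, DRB-only peaks at 5.86%, 23.4% and 22.2%, and all DRB peaks at 9.76%, 30.4% and 27.1%. All 3 RIP lists met 47 gained peaks (0.821%), against 3.17% of kept peaks. Kept peaks are wider (medians above), and the part of width in these shares was not tested.

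The peaks with the highest peak-caller scores show how far the tag counts of both treatments can differ. Of the 10 gained peaks with the highest DRB score, 5 lie on chromosome 8 and 5 are in the siNTC list. Of all 5728 gained peaks, 262 lie on chromosome 8 and 19.0% are in the siNTC list. Among the 10, chr8:125219177-125221347 and chr8:125226706-125227206 both lie inside NSMCE2. They had 28.0 and 9.6 tags in the control, against a median of 0.5 for gained peaks, and folds over it of 15.9 and 4.43. The peak chr9:109321144-109322037, 96193 bp from the start of PTPN3, had 179.5 tags in DRB, 6.31 in ActD and 221.4 in siNTC. The peak chr7:102898328-102899092, inside FBXL13, had 76.9 tags in DRB and 164.9 in ActD, and it is absent from the siNTC list. With 10.2 control tags its fold in DRB was 4.02, near the lowest of the DRB list (4.0), against a median of 21.6 for gained peaks. Among gained peaks over 50000 bp from any start, one within SYNE2, a nuclear envelope protein gene, had 130.4 tags in DRB, 50.9 in ActD and 20.4 in siNTC.

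At gene starts, the highest-scoring gained peak covers the start of MACC1, a regulator of motility and of the MET receptor gene. It had 109.6 tags in DRB and 84.7 in ActD, lies 507 kb from any DMSO peak and is in neither the siNTC nor the siMyc list. The peak at GPAT3, an enzyme of triglyceride synthesis, had 253.8 tags in DRB, 48.1 in ActD, 14.8 in siMyc and 284.7 in siNTC. Those at N4BP3, TRPM6, a magnesium channel, and AACS, an enzyme of ketone use, had 79.4, 104.6 and 99.7 tags in DRB and 8.52, 5.32 and 5.11 in ActD. Their siNTC tags were 521.5, 86.0 and 246.9. At these 4 starts a control state without inhibitor carried a listed peak although the DMSO list has none.

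Gained peaks could also be broad or isolated. The widest spans 13160 bp (chr11:34420357-34433517) with 872.2 DRB tags and meets 4 ActD peaks. The next, 12373 bp inside ATP8B4, has 1048 DRB tags. The highest tag count of all, 1196.9 in DRB and 125.2 in ActD, belongs to a peak at an inner start of MAP7, a microtubule-associated protein gene, which had 33.2 tags in siNTC (chosen after its value was seen). The peak farthest from DMSO peaks, chr16:35524585-35525551, had 34.5 tags in DRB and 17.2 in ActD and lies 3.65 Mb from the nearest. Of the 5 farthest peaks none is in the siNTC list and 1 is in the siMyc list.

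The gained peaks at starts met 612 listed starts of 538 genes. Of these genes, 160 have several listed starts, and in 104 of the 160 the most upstream one was met. In 39 genes (7.25%) a listed start also had a kept peak, and 1 listed start had both a gained and a kept peak. Expression could be read for the 408 genes that matched the gene tables by symbol.

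Genes with a gained peak at the start were mostly quiet in untreated cells. Their median nascent RNA was 0.09 TPM, against 1.24 TPM for 7575 genes with a kept peak at the start, 0.125 TPM for 726 with a DRB-only peak and 0.11 TPM over 18158 genes with a listed start. At least 1 TPM was reached by 64 of 408 (15.7% [12.3, 19.6]), against 56.3% [55.2, 57.4] with a kept peak, 18.6% [15.8, 21.6] with a DRB-only peak and 29.8% of all. In total RNA, 23.3% reached 1 TPM, against 64.7% with a kept peak, 26.9% with a DRB-only peak and 35.1% of all. Where no start had a kept peak, 13.2% of 370 genes reached 1 TPM of nascent RNA, and where one had, 39.5% of 38.

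Of 18 gene lists, 11 had no member with a gained peak at its start. Among these were ribosomal protein genes (0 gained and 55 kept of 59 with a listed start), S-phase replication genes (0 and 38 of 48), G2 and mitosis genes (0 and 31 of 35), MYC target genes (0 and 32 of 35), genes of the H2A.Z exchange complexes (0 and 18 of 19), elongation factors of RNA polymerase II (0 and 22 of 26) and p53 targets (0 and 14 of 17). Myeloid transcription factors had 0 gained and 5 kept of 16 starts, and 8 of the 22 genes held a gained peak inside the gene, among them SPI1 (PU.1), RUNX1, ETV6 and KIT. Of all protein-coding genes 9.12% did, and the hosts are long genes (medians above). In the other 17 lists 0 to 4 genes each held one, 33 of 533 in all. The lists differ in size, with 0 of 78 ribosomal protein genes, 4 of 18 neutrophil and monocyte genes and 4 of 14 epithelial and fibroblast markers. A gained peak inside the gene was thus not particular to myeloid factors. Over all listed genes 538 of 26246 had a gained start, so a count of 0 in a list of this size is no mark of that list.

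The other 7 lists had 14 members with a gained start. Over all listed genes, 538 of 26246 had one, and lists this small were not tested against that share. Promyelocyte granule genes had 3 of 11 (CFD, RNASE3, MS4A3), beside 1 with a kept start and 3 with a DRB-only start. Neutrophil and monocyte genes had 3 of 16 (FCGR2A, FCGR1A, TLR4), beside 1 with a kept and 0 with a DRB-only start. Immediate early genes had 2 of 25 (FOSB, KLF4), beside 14 with a kept start and 3 with a DRB-only start. Apoptosis regulators had 2 of 20 (BCL2A1, BMF), NF-kappa-B and inflammatory genes 2 of 16 (CXCL8, BCL3) and replication-dependent histone genes 1 of 51 (H2BC8). In untreated nascent RNA, 7 of the 11 promyelocyte granule genes reached 1 TPM, against 0 of 16 neutrophil and monocyte genes, 1 of 8 lymphoid and 0 of 6 erythroid and megakaryocyte markers. Of markers of other cell types, 1 of 3 epithelial and fibroblast ones (PDGFRA), 0 of 8 lymphoid and 0 of 6 erythroid and megakaryocyte ones had a gained start. The PDGFRA peak had 17.4 DRB and 14.1 ActD tags. ActD tags were lower at CFD (5.9), FCGR1A (9.4), FCGR2A (10.5) and MS4A3 (12.2), and higher at RNASE3 (82.1) and TLR4 (87.3). These counts are too small to compare cell types.

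Nascent RNA after treatment was compared per gene as counts per 1000000 (CPM) plus 1, on the log2 scale. Genes entered when the DRB, ActD and DMSO libraries together gave 20 counts or more and their mean level was 1 CPM or more. This kept 200 of the 408 genes and 12121 genes in all. The libraries held 14339264 (DRB), 12600067 (ActD) and 14426368 (DMSO) expected counts, of which mitochondrial genes took 66.5%, 56.9% and 45.9%. The untreated library held 25167597, of which mitochondrial genes took 0.56%. Untreated counts and CPM given below are therefore not on the same scale as those of DMSO-treated cells. The median of all measured genes was −1.19 for DRB over DMSO and −1.01 for ActD over DMSO, and each value is read beside it.

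Under DRB, genes with a gained start had a higher median ratio than all measured genes, and so had genes with a DRB-only start. At least 2-fold higher than in DMSO were 39 of the 200 (19.5%), against 4.06% of 6284 genes with a kept start, 12.8% of 328 with a DRB-only start and 9.1% of all measured genes. At least 2-fold lower were 85 (42.5%), against 58.9%, 48.5% and 54.7% of the same sets. The median ratio was −0.71, against −1.33 for kept and −0.86 for DRB-only starts, and 0.47 after centring on the median gene, against −0.15 and 0.32. When library totals left out genes of mitochondria, of ribosomal RNA and of RNA polymerase III, it was −0.06, against −0.36 for DRB-only starts and −0.61 over all. Centred on the median gene, 79 were at least 2-fold higher and 40 lower, against 24.9% and 26.4% of all measured genes. By level, the median at 1 to 3 CPM was −1.48 for 55 genes with a gained start and −1.64 over all. It was −0.57 for 68 and −1.36 over all at 3 to 10 CPM, and −0.46 for 77 and −1.05 over all above 10 CPM. At 1 to 3 CPM, 9 of the 55 (16.4%) were at least 2-fold higher, close to the 15.2% of all measured genes. At 3 to 10 CPM 17 of the 68 were, against 12.9% of all, and above 10 CPM 13 of the 77 (16.9%), against 4.59%. With a kept start these shares were 6.18%, 6.59% and 2.6%. How far the filter on low counts raised the shares of quiet genes was not tested.

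Under ActD the same genes stood close to the others or below them. At least 2-fold higher were 31 (15.5%), against 15.4% of all measured genes, and at least 2-fold lower were 113 (56.5%), against 50.1%. The median ratio was −1.32, against −1.09 for kept and −1.54 for DRB-only starts, and −0.31 after centring on the median gene, against −0.09 and −0.53. Centred on that median, 52 were at least 2-fold higher and 67 lower, against 30.1% and 31.6% of all. The 200 genes had passed a filter that needs nascent RNA in at least 1 treated library, and both ratios share the DMSO library. In each inhibitor's input DNA these genes took nearly the same share of counts, 1.62% in DRB and 1.59% in ActD, against 1.61% in DMSO.

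The genes named next had the 6 highest or lowest ratios of each inhibitor among the 159 with at least 100 counts in sum, and 19 of these 23 starts (82.6%) are in the siNTC acH2A.Z list, against 79.2% of the 159. A gene with few DMSO counts could reach 100 counts only through an inhibitor, as BCL3, B3GALT1 and ELOA2 did through DRB and MDGA1 through ActD. The place of such genes among the highest ratios was set in part by this filter. The ratio that each gene was named for kept its direction under all 3 scales. All ratios are to the DMSO library, which departed from untreated cells in either direction for some of these genes. In CPM, ERMAP had 15.9 in DMSO and 2.23 in untreated cells, and CREB5 10.7 and 0.278. MDGA1 had 0.0693 and 2.03, MOSMO 0.139 and 1.71, while POLR2J2 was close with 14.9 and 13.3. How far a ratio lies in the DMSO library was not tested. Intervals were computed from raw counts with nothing added, so with few DMSO counts they lie above the printed ratio.

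Higher under DRB was HACD4, an enzyme of very-long-chain fatty acid synthesis, with 110 CPM in DRB and 9.05 in ActD, against 13.0 in DMSO and 3.38 in untreated cells. Its ratio for DRB was 2.99 (log2 interval 2.86 to 3.31), and the peak at its start had 99.1 tags in DRB, 34.3 in ActD and 137.9 in siNTC. CDKL1, a cyclin-dependent-kinase-like kinase, had 23 CPM in DRB and 1.43 in ActD, against 1.32 in DMSO, and a ratio of 3.37 [3.46, 4.88]. The peak at CDKL1 was among the strongest, with 819.8 tags in DRB, 169.7 in ActD, 30.2 in siMyc and 723.5 in siNTC, and 1 of its 3 listed starts has a kept peak.

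PTPN14, a tyrosine phosphatase, was higher under both inhibitors, with 17.4 CPM in DRB and 6.19 in ActD, against 0.624 in DMSO. Its peak had 76.5 tags in DRB and 16.1 in ActD. BCL3, a nuclear member of the I-kappa-B family, had 133 counts in DRB and 0 in ActD, against 1 in DMSO, and B3GALT1, a galactosyltransferase, had 152 and 1, against 2. The BCL3 ratio for DRB has a log2 interval of 4.56 to 12.4, and that of B3GALT1 one of 4.38 to 9.32. ELOA2, a paralog of elongin A that lies within KATNAL2, had 305 counts in DRB and 1 in ActD, against 1 in DMSO. Reads of ELOA2 and of the gene around it could not be told apart, since the sources used here name no strand setting. The same limit holds where other named genes overlap a neighbour, among them CDKL1, ERMAP, TMBIM1, RFTN1, ADCY7 and MOSMO.

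Lower under DRB was CCM2, a vascular scaffold protein gene, with 0 counts in DRB and 14 in ActD, against 215 in DMSO. This is at least 71.2-fold lower under DRB at a floor of 3 counts per library, with the DMSO count taken as it stands, and the exact log2 interval, which covers error in both counts, ends at −5.84. Its gained peak covers an inner start, and both other starts have kept peaks. ARID5A, an RNA-binding stabiliser of inflammatory transcripts, had 0.349 CPM in DRB and 5.00 in ActD, against 18.6 in DMSO. RHEX, a regulator of erythroid expansion, had 0.349 and 1.59, against 16.8, and ERMAP, an erythroid membrane protein, had 0.0697 and 5.63, against 15.9. TMBIM1 was lower under both, with 0.0697 and 0.0794 CPM, against 12.8, and 1 of its 3 listed starts has a kept peak. CREB5, a transcription factor that binds cAMP-response and AP-1-like sites, had 0 counts under either inhibitor, against 155 in DMSO and 7 in untreated cells, which is at least 51.4-fold lower in DRB and 45.1-fold lower in ActD at the same floor, with exact log2 intervals that end at −5.37 and −5.18. Of its 3 listed starts, 2 lie upstream of the gained one.

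Higher under ActD were INKA2, an inhibitor of the kinase PAK4, and its antisense partner INKA2-AS1, which share 1 gained peak of 136.4 tags in DRB and 15.3 in ActD. That peak had 377.9 tags in siNTC, and 1 of the 2 listed starts of INKA2 has a kept peak. INKA2 had 8.37 CPM in DRB and 46.3 in ActD, against 1.25 in DMSO, and a ratio for ActD of 4.39 [4.54, 5.98]. INKA2-AS1 had 31 counts in DRB and 161 in ActD, against 2 in DMSO, and its reads overlap those of INKA2. FOSB, an AP-1 subunit of the immediate early class, had 0.418 CPM in DRB and 68.7 in ActD, against 2.5 in DMSO. Its ratio for ActD was 4.32, and 5.33 centred on the median gene, while its ratio for DRB was −1.30, and −0.12 centred. Its peak had 39.1 tags in DRB, 29.0 in ActD and 50.9 in siNTC. MDGA1 had 0 counts in DRB and 137 in ActD, against 1 in DMSO, and MOSMO, a modulator of hedgehog signalling, had 18 and 96, against 2. POLR2J2, with 4.28 CPM in DRB and 135 in ActD, against 14.9 in DMSO, has near-identical copies, so its counts are uncertain.

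Lower under ActD were RFTN1, a lipid raft protein, with 3.07 CPM in DRB and 0.0794 in ActD, against 25.6 in DMSO, and SLC39A11, a zinc transporter, with 10.9 and 0.238, against 15.9. RFTN1 carried a peak of 345.2 tags in DRB that was near the lower end in ActD (7.75 tags) and large in siNTC (608.4 tags). ADCY7, the adenylyl cyclase of blood cells, had 6.42 and 0.159 CPM, against 14.8. KANK1, a regulator of actin and adhesion, had 47.1 CPM in DRB and 1.75 in ActD, against 33.5 in DMSO. Of its 4 listed starts, 3 lie upstream of the gained one and 1 has a kept peak. H2BC8, a histone gene, had 154 CPM in DRB and 3.25 in ActD, against 55.5 in DMSO. Histone genes are near-identical copies, so its counts are uncertain, and its peak, of 31.7 tags in DRB and 245.4 in ActD, is centred 950 bp past the start.

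**Figure D5:**
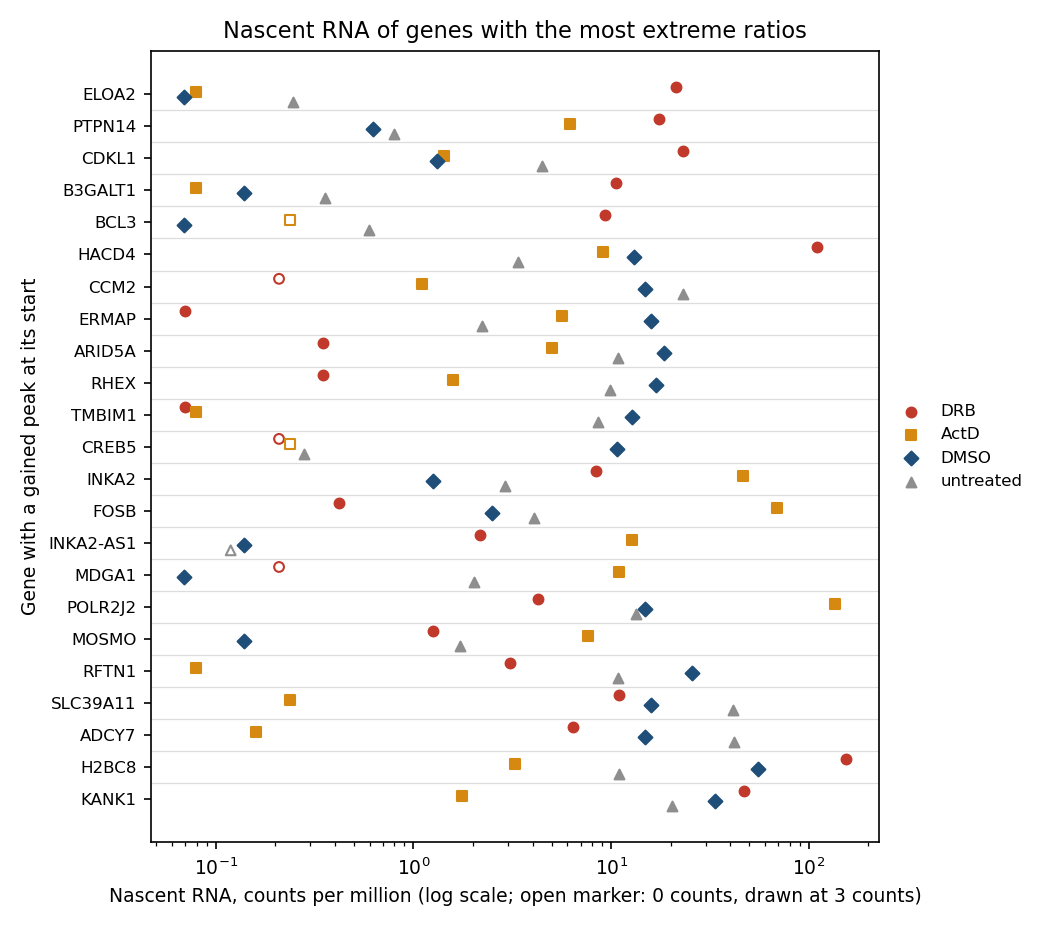
Nascent RNA in CPM (log axis) in DRB-treated, ActD-treated, DMSO-treated and untreated HL-60 cells, 1 library each, for the 23 genes with a gained acH2A.Z peak at the start and the most extreme ratios to DMSO. Open markers are libraries with 0 counts, drawn at the level of 3 counts, and HACD4 stands at 110 CPM in DRB, against 13.0 in DMSO.

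Myeloid genes with a gained start did not share a direction. CFD, complement factor D, had 19.5 CPM in DRB and 66.0 in ActD, against 16.2 in DMSO, and a ratio for ActD of 1.96 [1.82, 2.25]. RNASE3, an eosinophil granule ribonuclease, had 4.84 and 26.0 CPM, against 7.34. TLR4, the lipopolysaccharide receptor, had 0.767 and 1.43 CPM, against 7.49, with ratios of −2.26 for DRB and −1.80 for ActD, and −1.08 and −0.80 when centred on the median gene, so that its ActD ratio is then within 2-fold. Its peak had 139.4 tags in DRB, 87.3 in ActD and 15.9 in siNTC. FCGR2A, an Fc receptor gene with close paralogs, had 0 counts in DRB and 23 in ActD, against 100 in DMSO. This is at least 33.1-fold lower in DRB at the same floor, and the exact log2 interval ends at −4.73. FCGR1A had 0 and 1 counts, against 38, and MS4A3 0 and 0, against 3.

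BCL2A1, KLF4, CXCL8 and BMF had fewer counts under both inhibitors than in DMSO. BCL2A1, an NF-kappa-B-induced survival factor, had 0 counts under either inhibitor, against 66 in DMSO and 6 in untreated cells. This is at least 21.9-fold lower in DRB and 19.2-fold lower in ActD than in DMSO at the same floor. The exact log2 intervals end at −4.11 and −3.93. KLF4, a monocyte-associated transcription factor, had 1 count in DRB and 11 in ActD, against 48 in DMSO and 8 in untreated cells. Its ratios of −2.02 and −1.21 were within 2-fold when centred on the median gene (−0.83 and −0.20). CXCL8, the neutrophil chemokine interleukin 8, had 44 and 4 counts, against 116, and carried a peak of 136.3 tags in DRB and 495.9 in ActD that is in neither the siNTC nor the siMyc list. Its ratio for DRB was −1.15, and 0.03 when centred on the median gene. BMF, a pro-apoptotic BCL2-family gene, had 1 and 4 counts, against 13, and 1 of its 2 listed starts has a kept peak. Its ratios were −0.83 for DRB and −0.53 for ActD, and 0.36 and 0.48 when centred on the median gene, so their direction flips.

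Another 4 genes were picked for their strong peaks after the values were seen. The inner MAP7 start, with the strongest peak, had 51.5 CPM in DRB and 32.2 in ActD over the whole gene, against 60.4 in DMSO. FOXP1, whose most downstream listed start carried a peak of 350.8 tags in DRB, 551.7 in ActD and 230.4 in siNTC, had 64.7 and 46.6 CPM, against 39.2. Of its 6 listed starts, 1 has a kept peak. SMAD6, an inhibitor of BMP signalling, had a peak of 431.5 tags in DRB, 19.5 in ActD and 1261.1 in siNTC, and 4 and 0 counts, against 79 in DMSO. PROK2, a chemokine-like peptide gene, had a peak of 325.5 tags in DRB, 51.6 in ActD and 806.6 in siNTC, and 4 and 0 counts, against 8.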

How the data were processed

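Groups were taken from the sample titles, with 1 library each, so no test between groups was possible. Per the submitters' processing notes, reads were aligned to GRCh38 and the tools included STAR 2.5.2b, Trim Galore, cutadapt, FastQC and HOMER. Per the file headers, each deposited peak carries a normalized tag count (signal), a findPeaks score, a fold enrichment and a p-value, both against the control. In the gene tables the authors give, per the file headers, an expected count and a TPM for each gene, and the sources used here name no quantifier. The authors called peaks per library. The normalized tag scale is not in the headers, and depth outside peaks is unknown.

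Peaks were compared by position, with 1 shared bp as overlap, on chromosomes 1 to 22. Gene starts and promoter windows came from RefSeq (GRCh38.p14), whose table lists 33725 starts there and is not complete, so shares at starts are lower limits. Gene positions came from the RefSeq gene table. Of these starts, 24537 belong to genes matched to the gene tables by current symbol. Expected counts were rounded where intervals needed whole counts, and log2 ratios used CPM (counts per 1000000) plus 1. A gene was called at 2-fold. Exact 95% intervals cover counting error only, and peaks of 1 library are not replicates. For a library at 0 counts, the limit is 3 counts (0.209, 0.238 and 0.208 CPM in DRB, ActD and DMSO). Reads had no molecular identifiers, so they may not be independent molecules.

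The members, the 18 gene lists and the tests were chosen with earlier results of these data known. Named regions are the 10 highest scores, the 5 highest at a start, the 5 highest over 50000 bp from a start, the 5 widest and the 5 farthest from DMSO peaks. Named genes are the 6 highest and 6 lowest ratios of each inhibitor among genes with at least 100 summed counts, and up to 3 of each list. Peak sequences were not used here, since they need the genome. Python 3.11.15, numpy 2.4.6, pandas 2.3.3, scipy 1.17.1 and matplotlib 3.10.9 were used, and the scripts were tested on simulated data. The IgG libraries were not analysed here.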

Additional observations from a re-analysis of the deposited data

How the results depend on the processing

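The number of gained peaks was 3534 with a fold over control of at least 8 in both lists and 2612 with more tags than the weakest DMSO peak in both lists, against 5728, and stayed within 1.5 times of it under the other 4 alternatives. The share at a gene start was 18.3% within 5000 bp and 4.57% among peaks also absent from the siNTC list, against 9.0%. The share in the siNTC list was 20.1% at a fold of at least 8 and 22.1% over the weakest DMSO peak, against 19.0%. For genes with a gained start, the median DRB ratio of −0.71 was reversed to 0.47 by centring on the median gene. It was −0.057 when library totals left out genes of mitochondria, of ribosomal RNA and of RNA polymerase III, −0.43 with a pseudocount of 5 CPM and 0.00 without the filter on low counts. The median ActD ratio of −1.32 was −0.31 centred, −1.80 and −0.68 with pseudocounts of 0.1 and 5 CPM, and −0.17 without the filter. That last setting took in 408 genes in place of 200. The causes of the other shifts were not tested. The alternatives with tags over the weakest DMSO peak, with absence from the siNTC list and with genes free of kept starts were chosen after seeing the data.

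No paired analysis was possible because each group holds 1 library, and no library was left out for the same reason. The weakest listed peak had 11.2 tags in DRB, 4.06 in ActD and 17.1 in DMSO, which limits the weak peaks seen in DMSO most.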

Other observations

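The 28 protein-coding genes that hold at least 5 gained peaks were read in nascent RNA as well. Of the 19 that passed the filter on low counts, 5 were at least 2-fold higher and 5 at least 2-fold lower under DRB, and 1 higher and 9 lower under ActD. Over all measured genes these shares were 9.1% higher and 54.7% lower for DRB, and 15.4% higher and 50.1% lower for ActD. NEIL3, a DNA glycosylase gene, had 18.8 CPM in DRB and 3.17 in ActD, against 99.1 in DMSO. POU2F1 had 61.6 CPM in DRB and 20 in ActD, against 69.0 in DMSO. ATXN1, the ataxin-1 gene, had 55.2 CPM in DRB and 20.2 in ActD, against 26.6 in DMSO.

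PPARG and MAPK10 were nearly silent in these libraries. PPARG, a nuclear receptor of fat cells, held 5 gained and 4 kept peaks and had 0 CPM in each treated library and 0.119 CPM in untreated cells. MAPK10, a neuronal JNK kinase, held 7 gained and 1 kept peaks and had 0 CPM in each treated library and 0.834 CPM in untreated cells. ANKRD55, with 8 gained peaks, had 0 CPM in DRB and in ActD, against 7.28 CPM in DMSO.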
